A study of Mus musculus with 10 samples.

Results

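Microglia of 5xFAD mice on normal diet were compared with microglia of wild-type mice on normal diet, gene by gene and across all genes. The comparison takes 7 of the 10 libraries of the study, 3 from 5xFAD mice (5xFAD control) and 4 from wild-type mice, chosen by genotype and diet in the labels. The other 3 libraries were from 5xFAD mice in which microglia were removed with the CSF1 receptor inhibitor PLX3397 and had come back. They entered the choice of tested genes, the scaling of libraries and the model's estimate of spread, and are not compared here. All cells were sorted from the hippocampus as CD45low CD11b+ cells, and their RNA was sequenced from Smart-Seq libraries. Mice of the 5xFAD line carry human transgenes, APP among them, with familial Alzheimer disease mutations, driven by the neuronal Thy1 promoter. The label gives neither the age of the wild-type and control mice nor whether each library of a group is from its own animal. The p-values therefore weigh only the spread among these libraries, part of which may be technical. Among the 19782 listed genes, 12505 were expressed enough to be tested.

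Microglia are the resident macrophages of the brain. In healthy tissue they survey their surroundings through purine, chemokine and adhesion receptors and depend on CSF1 receptor signalling. Around amyloid plaques they are known to switch to a state with high lipid, lysosomal and phagocytic gene expression and lower expression of the surveying genes.

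Levels below are CPM, counts per 1e+06 of scaled library size, given in the order of the library numbers, wild type 1 to 4 and then control 1 to 3. Fold changes come from edgeR's quasi-likelihood test, with standard errors (SE) on the log2 scale and p-values adjusted by Benjamini-Hochberg over all tested genes. A gene is said to rise or fall where its adjusted p was under 0.05. The libraries held 18501126 to 23231734 estimated counts. The summed level of 16 microglia markers was 57690 to 68490 CPM in the wild-type libraries, against 60540 to 67830 CPM in the control libraries, with none of the 16 at 0. Summed markers of other cells were low and overlapped between the groups except for neurons. The 14 measured neuron markers summed to 12.9 to 77.8 CPM in wild type, highest in wild type 3, and to 6.55 to 9.93 CPM in control. Neutrophil markers ran from 38.7 to 271.4 CPM in wild type and from 25.8 to 351.3 CPM in control, highest in control 2. Wild type 3 stood apart on the second principal component of the 7 libraries, which held 27% of the variance. The libraries wild type 2, control 1 and control 3 had almost no transcripts of 4 Y-linked genes and are called the Y-low libraries below. Control 2 was thus the only control library with Y-linked transcripts, and with a term for that status 963 genes rose and 633 fell. The median log2 ratio of the risen genes was 0.93 among the libraries with Y-linked transcripts and 0.82 among the Y-low libraries, and that of the fallen genes -0.93 and -0.58. The genes were called from these same libraries, and each of these comparisons has a single library in one group, so the ratios are a description only.

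Of the 12505 tested genes 1260 rose in 5xFAD control, which is 10.1%, and 1005 fell, which is 8.04%. Together 18.1% of tested genes were called. The 3 control libraries lay above all 4 wild-type libraries for 1763 genes (14.1%) and below them for 1576 genes (12.6%). Of the risen genes 510 (40.5%) rose at least 2-fold, 215 at least 4-fold and 125 at least 8-fold. Of the fallen genes 265 (26.4%) fell at least 2-fold, 34 at least 4-fold and 8 at least 8-fold. The same numbers held with the 11 risen genes and the 1 fallen gene that had no count in one group set at their lower bounds. The median change was 1.82-fold among risen and 1.71-fold among fallen genes. Among genes with a mean of at least 10 CPM, 82 rose at least 4-fold and 4 fell that far.

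**Figure D1:**
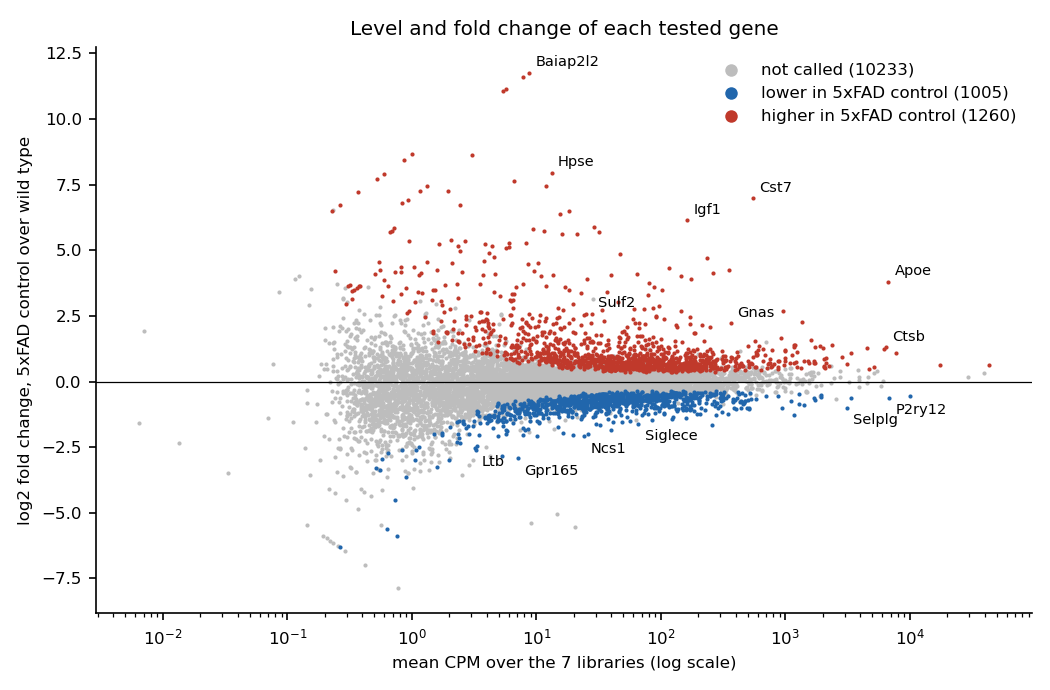
Each point is a tested gene, placed by its mean CPM over the 7 libraries (log scale) and its log2 fold change of 5xFAD control over wild type, coloured by the edgeR call at an adjusted p of 0.05. The 1260 risen genes reach much farther from 0 than the 1005 fallen genes. Folds of genes without a count in one group, such as Baiap2l2, depend on the prior count.

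The calls were spread unevenly over expression levels. Tested genes were ranked by mean level and cut into 3 equal tiers. In the top tier, at or above 39.0 CPM, 693 genes rose and 475 fell. The middle tier, from 9.29 CPM, had 345 risen and 381 fallen genes. The bottom tier had 222 and 149. Ranked by the wild-type level alone, the bottom tier held 325 risen and 107 fallen genes, and the top tier 575 and 549. Risen genes took 17.5 to 22.7% of all scaled counts in the wild-type libraries and 37.3 to 37.7% in the control libraries. Fallen genes took 12.2 to 13.4% and then 7.24 to 8.35%. The genes were called from these same libraries, so the direction of both shifts follows from the calls and only their size is described. The 100 most counted genes held 32.6 to 36.4% of counts in wild type and 39.0 to 40.4% in control, and the groups did not overlap.

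Scaled for transcript length, in TPM, the most abundant mRNA was the same in both groups. It was Cst3, the cysteine protease inhibitor cystatin C, at 110500 ± 4820 TPM (SD, n = 4) in wild type and 110600 ± 4080 TPM (SD, n = 3) in control. Actb, which encodes cytoplasmic actin, followed it in both. Apoe, the main lipid carrier protein of the brain, moved from rank 50 to rank 5. The lysosomal proteases Ctsd and Ctsb moved from ranks 16 and 22 to ranks 9 and 10. Ctsd was at 5801, 4499, 4821 and 5878 CPM in wild type and 12540, 6219 and 14850 CPM in control. Its value in control 2 thus lay close to wild type. Cst7, which encodes the endolysosomal protease inhibitor cystatin F, moved from rank 4664 to rank 41. In the other direction Lgmn, the lysosomal protease legumain, moved from rank 7 to 14, and P2ry12, the ADP receptor, from rank 14 to 31.

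A small set of genes was uncounted in all 4 wild-type libraries and had at least 10 counts in every control library. There were 7 of them, and 0 genes with the reverse pattern. Baiap2l2, an actin-membrane linker of the I-BAR family, was counted at 22.5, 13.3 and 25.2 CPM in the control libraries, at least 574-fold above the 3 counts that the pooled wild-type libraries allow. Dkk2, a secreted Wnt modulator, stood at 18.9, 14.6 and 21.2 CPM, at least 514-fold higher. Lgi2, a secreted leucine-rich repeat protein, stood at 15.2, 9.57 and 14.8 CPM, at least 372-fold higher. These 3 genes were in the bottom tier by mean level, yet lay far above the wild-type floor in every control library. The other 4 were Tmem254c, whose near-identical neighbours make its count uncertain, the small Maf transcription factor Maff, the heparan sulfate sulfotransferase Hs3st1 and the decoy receptor of RANK ligand Tnfrsf11b, with 18 to 35 counts in the control libraries.

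Among genes of at least 10 CPM the largest rise was that of Hpse, heparanase, which cleaves heparan sulfate chains of the cell surface and matrix. The deepest fall was that of Ncs1, a neuronal calcium sensor that also acts in other cells. The 250 bases before a RefSeq transcript start of each (GRCm38.p6) are shown because these genes mark the ends of the range. The Hpse start is the gene's outer bound, and the Ncs1 start used lies 215 bases inside that bound, so most of its window is within the annotated gene. Capitals mark matches, on either strand, to the GC box GGGCGG, which was the only match among 8 short motifs searched in either window. Hpse lies on chr5:100719717-100719966, minus strand, and Ncs1 on chr2:31245673-31245922, plus strand.
Hpse: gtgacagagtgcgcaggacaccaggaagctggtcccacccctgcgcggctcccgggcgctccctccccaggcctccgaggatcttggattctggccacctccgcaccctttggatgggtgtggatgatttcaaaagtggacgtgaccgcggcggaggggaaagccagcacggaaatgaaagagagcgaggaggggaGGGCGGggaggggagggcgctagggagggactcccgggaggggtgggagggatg
Ncs1: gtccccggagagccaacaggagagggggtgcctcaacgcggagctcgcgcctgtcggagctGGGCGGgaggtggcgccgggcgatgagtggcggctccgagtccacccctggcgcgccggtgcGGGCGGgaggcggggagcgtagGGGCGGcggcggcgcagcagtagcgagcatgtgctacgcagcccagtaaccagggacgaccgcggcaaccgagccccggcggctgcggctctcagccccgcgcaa
The Hpse window holds 1 GC box, 54 bases before the start, and the Ncs1 window 3. A GC box was found in 55.7% of windows of risen genes, 57.1% of windows of fallen genes and 54.9% of windows of all tested genes.

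Hpse was counted at 0.241, 0.095, 0 and 0.135 CPM in wild type and at 30.6, 21.4 and 40.6 CPM in control, a 249-fold rise (log2 fold change 7.96 ± 0.45 (SE), edgeR adjusted p = 2.58e-08). It was close to absent in wild type, and the groups were far apart. Some risen genes with related roles, grouped after their values were seen, are given beside it. Sulf2, an extracellular enzyme that removes 6-O-sulfates from heparan sulfate, was at 8.15, 9.26, 8.65 and 9.12 CPM and then 56.9, 46.9 and 55.6 CPM (6.04-fold, log2 fold change 2.59 ± 0.14 (SE), adjusted p = 1.67e-08). Lox, the lysyl oxidase that cross-links collagen and elastin, was at 0.386, 0.712, 0 and 0.719 CPM and then 38.4, 37.6 and 50.4 CPM (90.7-fold, adjusted p = 7.93e-08). Fam20c, the Golgi kinase of secreted proteins, rose 10.4-fold (adjusted p = 1.41e-06), and Plaur, the urokinase receptor that localises plasmin formation to the cell surface, 4.14-fold (adjusted p = 4.83e-06). Sgsh, the lysosomal sulfamidase that degrades heparan sulfate, moved the other way, from 28.8, 11.4, 23.7 and 21.9 CPM to 5.96, 7.41 and 5.99 CPM (3.32-fold lower, adjusted p = 0.000657).

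On the list of secreted growth factors and ligands, chosen with earlier results known, 12 of 29 tested members rose (41.4%) and 0 fell. Of all tested genes 10.1% rose and 8.04% fell. The median log2 fold change of the list was 0.68, against -0.06 over all tested genes. Of its members 9 rose in the 7 libraries alone, with a term for Y-linked status or without wild type 4 or control 3. By DESeq2 or with GC and length offsets 2 fell, and 1 fell without wild type 1, wild type 2 or wild type 3. Without the Y-low libraries the median was 0.66. Igf1, insulin-like growth factor 1, was at 7.53, 5.65, 2.48 and 5.57 CPM in wild type and at 382, 370.1 and 369 CPM in control (70.3-fold, log2 fold change 6.14 ± 0.28 (SE), adjusted p = 3.47e-09), with little spread among the control libraries. Spp1, the secreted phosphoprotein osteopontin, was at 23.4, 18.7, 33 and 54 CPM and then 567, 412 and 722 CPM (17.6-fold, adjusted p = 7.99e-06). Csf1, a ligand of the CSF1 receptor, was at 7.38, 3.42, 10.6 and 7.68 CPM and then 85.3, 44.1 and 102 CPM (10.6-fold, adjusted p = 1.2e-05), while the mRNA of its receptor Csf1r fell 1.53-fold (adjusted p = 0.0239, from 0.0634 to 0.0857 without wild type 1, wild type 4, control 1 or control 2). In both Spp1 and Csf1 control 2 was the lowest control library and still lay above every wild-type library. In the opposite direction Serpinf1, which encodes the secreted serpin PEDF and is outside that list, fell 3.16-fold (adjusted p = 1.01e-05). Serpinf1 went from 42, 44.5, 50.2 and 48.3 CPM to 16.4, 12.7 and 14.8 CPM.

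Of 17 tested cathepsins and cystatins, proteases mostly of the lysosome and their inhibitors, 9 rose and 0 fell, with a median of 0.64. The protease Lgmn, outside this family, fell 1.47-fold (adjusted p = 0.0313, from 0.0691 to 0.0852 without wild type 4, control 1 or control 2). Ctsl, a broad cysteine protease, was at 769, 788, 1023 and 849 CPM in wild type and 2622, 2630 and 2466 CPM in control (3-fold, log2 fold change 1.59 ± 0.14 (SE), adjusted p = 1.68e-06). Ctse, an aspartic protease of the endosome, was near the detection limit in wild type at 0.82, 0, 0.389 and 0.315 CPM and reached 25.7, 9.57 and 29.5 CPM in control (56.1-fold, adjusted p = 1.2e-05). Cstb, the cytosolic inhibitor cystatin B, rose 2.33-fold (adjusted p = 5.34e-05). Of the cathepsins and cystatins 4 rose without the Y-low libraries. Subunits of the vacuolar proton pump, which acidifies lysosomes, moved less and not all one way: of 19 tested 7 rose and 1 fell, with a median of 0.34. The catalytic subunit Atp6v1a rose 1.84-fold (adjusted p = 0.00025). Among the membrane subunits Atp6v0d2, the osteoclast and macrophage form, had 1 count in all wild-type libraries and 7.78, 6.7 and 6.69 CPM in control, and Atp6v0a2 fell from 181, 137, 135 and 166 CPM to 80.1, 83.9 and 79.4 CPM (1.91-fold, adjusted p = 0.000215). Dcstamp, which drives the fusion of osteoclasts and giant cells, was at 0, 0.142, 0.0486 and 0.0899 CPM and then 19.3, 11 and 15.3 CPM (adjusted p = 5.62e-08). Of the proton pump 3 rose without the Y-low libraries.

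Interferon-induced families held many risen genes. Of 44 tested members of the Ifi, Ifit, Oas, Gbp and Isg families 21 rose and 1 fell, with a median log2 fold change of 1.10. Ifi204, a member of the DNA-sensing PYHIN family, was at 14.2, 16.5, 30.4 and 35.4 CPM in wild type and 106, 123 and 106 CPM in control (4.64-fold, log2 fold change 2.21 ± 0.25 (SE), adjusted p = 2.67e-05). Gbp6, an interferon-inducible GTPase, was at 5.21, 3.47, 5.83 and 7.1 CPM and then 20.4, 17.3 and 21.5 CPM (3.66-fold, adjusted p = 8.64e-05). Ifitm2, a restriction factor of viral entry, rose 4.21-fold (adjusted p = 0.000187). The member that fell was Gbp7, from 159.5, 185, 191 and 199.9 CPM to 71.7, 155 and 74.6 CPM (1.83-fold, adjusted p = 0.018), with control 2 far above the other control libraries. Its adjusted p was 0.0979 without control 1 and 0.0818 without control 3. Of the interferon-induced families 8 rose without the Y-low libraries and 13 without control 1. Several of these genes have near-identical neighbours, so single values within the clusters are uncertain.

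The transcription factors of the interferon pathway followed another pattern. Of 18 tested interferon regulatory factors, their binding proteins and STATs 0 rose and 3 fell by edgeR, with a median of -0.27. Stat3 fell from 121, 72.5, 92 and 111 CPM to 57.2, 50.3 and 69.7 CPM (1.68-fold, adjusted p = 0.00899) and Irf4 fell 2.82-fold (adjusted p = 0.00823). Irf7, the factor that amplifies type I interferon responses, was at 5.31, 3.61, 6.51 and 17.6 CPM and then 13.8, 8.36 and 12.3 CPM (adjusted p = 0.498). Wild type 4 was its highest wild-type library and overlapped the control libraries. Without wild type 4 there were 4 members that rose and 2 that fell, and Irf7 (log2 fold change 1.16, adjusted p = 0.0426) was among those that rose. With the Y-linked term 1 fell.

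**Figure D2:**
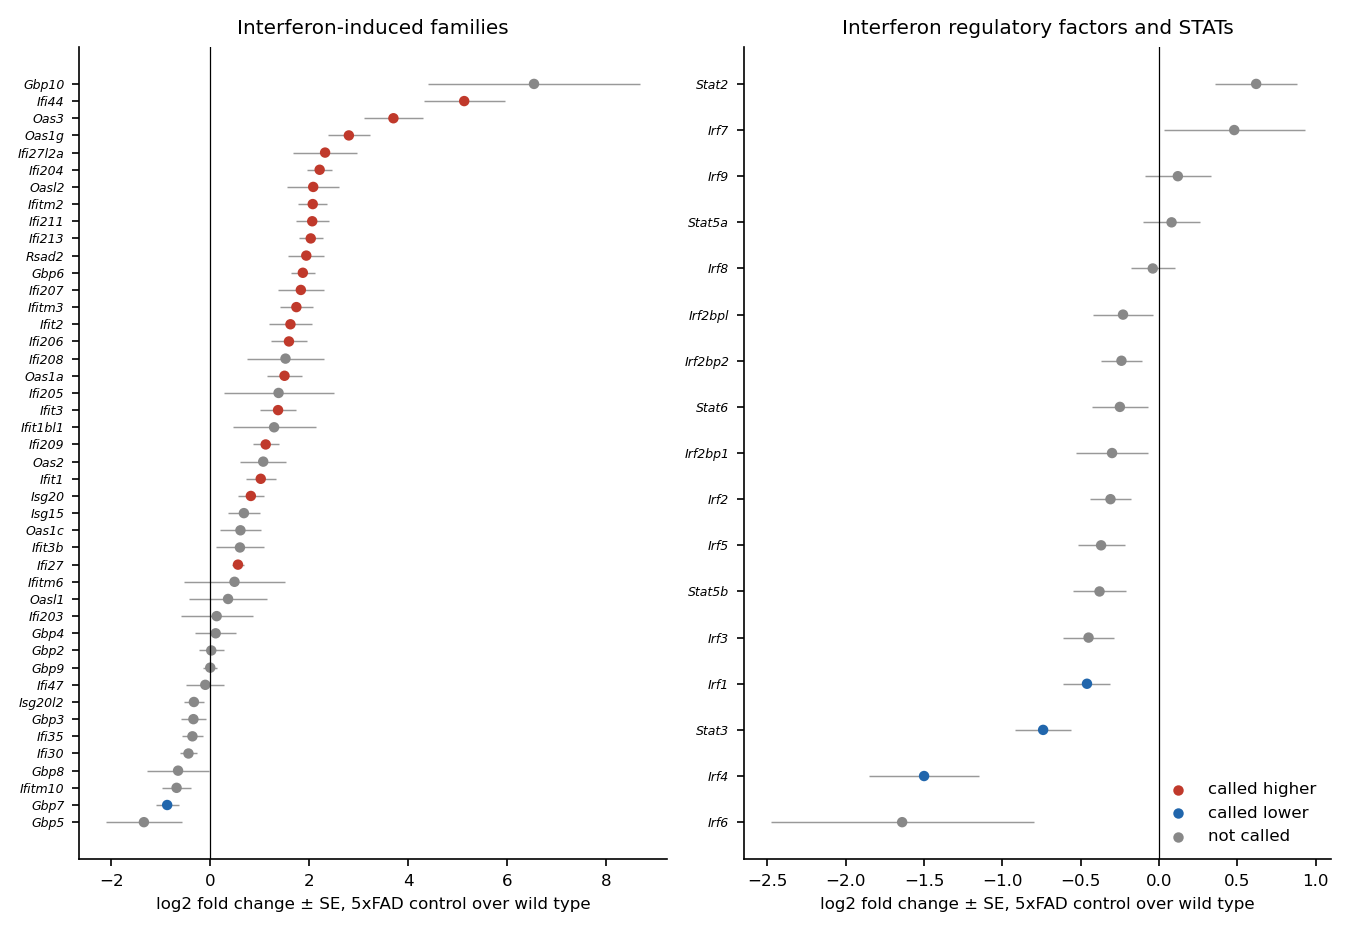
Log2 fold change of 5xFAD control over wild type with its SE for each tested member of the interferon-induced families (left, 44 genes) and for 17 of the 18 tested interferon regulatory factors, their binding proteins and STATs (right), coloured by the edgeR call. On the left 21 genes are called higher and 1 lower, on the right 0 higher and 3 lower.

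Some promoters of the interferon-induced families are shown because they carry the core letters of the interferon-stimulated response element, which interferon regulatory factors bind. The core, GAAA, any 2 bases and GAAA again, was searched on either strand of the 250 bases before the start. The core was found for 11 of the 17 risen family members with a window (64.7%), and for 11 of the 18 members that did not rise (61.1%), against 335 of 10081 tested genes with a window (3.32%). Ifi213 (chr1:173599273-173599522, minus strand) and Oas1g (chr5:120887614-120887863, minus strand) are given from RefSeq on GRCm38.p6, with all matches to the searched motifs in capitals.
Ifi213: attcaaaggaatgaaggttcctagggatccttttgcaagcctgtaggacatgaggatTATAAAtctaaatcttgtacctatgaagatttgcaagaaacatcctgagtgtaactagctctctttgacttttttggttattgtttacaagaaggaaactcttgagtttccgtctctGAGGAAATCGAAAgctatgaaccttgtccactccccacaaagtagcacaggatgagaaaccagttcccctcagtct
Oas1g: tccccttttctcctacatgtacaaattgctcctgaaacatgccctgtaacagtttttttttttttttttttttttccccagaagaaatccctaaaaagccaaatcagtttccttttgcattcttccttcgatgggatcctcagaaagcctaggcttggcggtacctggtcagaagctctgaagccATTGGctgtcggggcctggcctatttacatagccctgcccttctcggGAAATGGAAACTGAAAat
In Ifi213 the core starts 73 bases before the start used in the RefSeq promoter table, which lies 76 bases inside the gene's outer RefSeq bound, so the core lies within the annotated gene. It overlaps the ETS-type match GAGGAA, and the third match is a TATA box. In Oas1g a pair of cores overlap each other, 18 and 12 bases before the start. The match farther upstream is an NF-Y motif on the strand opposite to the printed one. A match describes the letters only.

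Of 37 tested genes named Il, which are interleukins, their receptors and a few others such as Il4i1 and Il18bp, 8 rose and 6 fell. Il6ra, the interleukin-6 receptor, fell from 110.2, 75.3, 77.8 and 113 CPM to 45.4, 33.6 and 37 CPM (2.43-fold, log2 fold change -1.28 ± 0.20 (SE), adjusted p = 0.000436). Il10ra, the ligand-binding chain of the interleukin-10 receptor, fell 1.92-fold (adjusted p = 0.00225). Ifngr1, a chain of the interferon-gamma receptor, was among the 10 largest losses in level, from 1657, 1705, 1958 and 1742 CPM to 905, 863 and 1046 CPM (1.88-fold, adjusted p = 0.000315). These receptors were well expressed in every library, and the groups did not overlap in any of the 3. Il4i1, a secreted amino acid oxidase, rose from 9.02, 5.37, 9.53 and 8.04 CPM to 50.2, 34.3 and 58 CPM (5.95-fold, adjusted p = 1.5e-06). Il1r1, the interleukin-1 receptor, rose 5.08-fold from low levels (adjusted p = 0.000836). Tnfsf8, the CD30 ligand of the TNF family, went from 4.05, 4.46, 7.58 and 4.13 CPM to 38.9, 29.3 and 48.2 CPM (7.67-fold, adjusted p = 8.25e-07). Of the genes named Il 1 rose without the Y-low libraries, 4 without control 1 and 5 without control 3, in the 7 libraries alone or with the Y-linked term, and 2 fell without the Y-low libraries.

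Of 27 tested Toll-like receptors and their adaptors 2 rose (7.41%) and 3 fell (11.1%), near the shares of all tested genes. The 2 risen members were the receptors Tlr2 and Tlr1, whose values are not given here. Myd88, the adaptor shared by most Toll-like receptors, was at 51.2, 57.6, 46.8 and 59.9 CPM and then 26.9, 22.4 and 34.8 CPM (1.92-fold lower, adjusted p = 0.00104). Sting1, the adaptor of cytosolic DNA sensing, which is outside that family and was chosen after its values were seen, fell from 645, 607, 591 and 647 CPM to 312, 258 and 353 CPM (2.02-fold, adjusted p = 9.76e-05). In both, every control library lay below every wild-type library.

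Paired immune receptors and chemokine genes split into risen and fallen members. Of 22 tested Siglec, Lilr, Pilr and Cd300 receptors 7 rose and 4 fell. Siglece, an inhibitory sialic acid receptor, was at 104, 74.2, 86.2 and 106 CPM in wild type and 27.8, 31.9 and 31.1 CPM in control (3.06-fold lower, log2 fold change -1.61 ± 0.16 (SE), adjusted p = 6.56e-06). Its relative Siglecf went from 24.7, 24.9, 29.2 and 31.3 CPM to 69.9, 56.2 and 83.1 CPM (2.53-fold higher, adjusted p = 3.23e-05). Siglecg fell 3.63-fold (adjusted p = 0.000496) and Cd33, another Siglec and one associated with Alzheimer disease risk in humans, 1.47-fold (adjusted p = 0.00364). Cd300lf, which binds membrane lipids, rose 12.4-fold (adjusted p = 1.67e-06) and Cd300a, a related inhibitory receptor, fell 1.47-fold (adjusted p = 0.00534). Of 36 chemokines and chemokine receptors 8 rose and 5 fell. The receptor Ccr1 was at 27.3, 21.1, 47.3 and 20.1 CPM and then 4.43, 7.66 and 9.29 CPM (4.06-fold lower, adjusted p = 0.00332). The chemokine Ccl6 went from 319, 364, 268 and 191 CPM to 1953, 1718 and 1844 CPM (6.44-fold higher, adjusted p = 2.37e-07). Of the paired receptors 3 rose without the Y-low libraries or control 1 or with the Y-linked term and 4 without wild type 4 or control 3, and 1 fell without the Y-low libraries. Of the chemokine genes 3 rose without the Y-low libraries or control 3, 4 without control 1 and 5 with the 5 CPM filter or with the Y-linked term, and 1 fell without the Y-low libraries, 2 without control 1 or control 3 or with the Y-linked term and 8 with GC and length offsets.

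Among genes of protein synthesis and respiration the share of risen members differed by family. Of the cytosolic ribosomal protein genes, whose near-identical copies elsewhere in the genome make single values uncertain, 74 of 84 tested rose and 1 fell, with a median of 0.86. Of the ribosomal proteins 48 rose without the Y-low libraries. Of 67 translation initiation and elongation factors 15 rose and 1 fell, with a median of 0.22. Eef1a1, the main elongation factor that brings tRNA to the ribosome, was at 1025, 1172, 1160 and 885 CPM and then 2709, 2647 and 2542 CPM (2.48-fold, adjusted p = 1.3e-05). The member that fell was Eef2k, the kinase that inhibits elongation, from 79.3, 67.9, 65.6 and 83.3 CPM to 42.1, 44.1 and 37.2 CPM (1.8-fold, adjusted p = 0.000929). Subunits of respiratory complexes I, III, IV and V rose in 38 of 75 cases and fell in 0, with a median of 0.55. Cox6a2, the muscle-type isoform of a complex IV subunit, stood out at 2.12, 3.61, 6.51 and 2.38 CPM and then 118, 85.2 and 112 CPM (28.8-fold, log2 fold change 4.85 ± 0.30 (SE), adjusted p = 7.37e-08). Of the mitochondrial ribosomal proteins 6 of 77 rose and 1 fell, and of the TCA cycle and pyruvate enzymes 2 of 26 rose and 1 fell, both under the 10.1% of risen genes among all tested genes. Proteasome subunits (3 of 47 risen, 0 fallen), aminoacyl-tRNA synthetases (2 of 35 risen, 0 fallen) and replication proteins of the MCM, ORC and DNA polymerase families (1 of 41 risen, 0 fallen) were under that share too. Protein disulfide isomerases and translocon proteins of the endoplasmic reticulum had 7 of 30 risen and 0 fallen. Among them Ssr4, a subunit of the translocon-associated complex, rose 2.24-fold (adjusted p = 8.92e-05). Of the respiratory subunits 7 rose without the Y-low libraries, 18 with GC and length offsets and 19 without control 1. Of the translation factors 9 rose without the Y-low libraries or control 1 or in the 7 libraries alone. Of the proteins of the endoplasmic reticulum 4 rose without the Y-low libraries, wild type 4, control 1 or control 2, in the 7 libraries alone or with GC and length offsets. Among the families with few calls, 4 TCA cycle enzymes, 10 mitochondrial ribosomal proteins and 6 proteasome subunits rose without wild type 3.

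**Figure D3:**
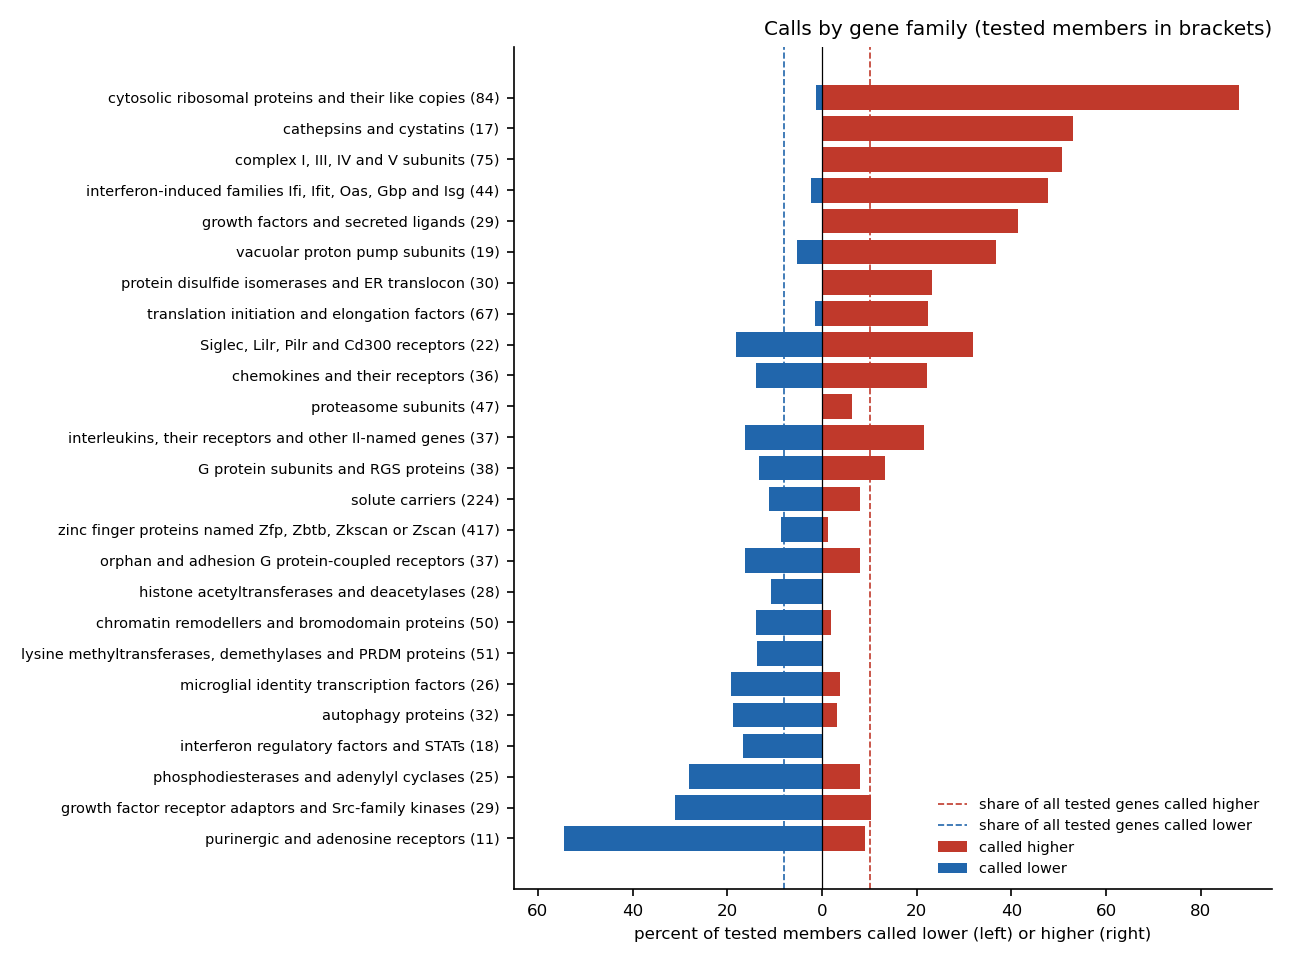
Percent of the tested members of each gene family or list called lower (bars to the left) or higher (bars to the right) in 5xFAD control, with the number of tested members in brackets. Dashed lines mark the shares of all tested genes, 10.1% higher and 8.04% lower. Ribosomal proteins, cathepsins and respiratory subunits lie far to the right, and purinergic receptors, adaptors and phosphodiesterases to the left.

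Among the 100 fallen genes with the lowest p, grouped by function after their values were seen, 24 encoded intracellular signalling proteins, 13 surface receptors and adhesion molecules and 11 transcription factors and chromatin proteins. The share of these functions over all tested genes was not counted. The median change of the 100 fallen genes was 2.15-fold, and that of the 100 risen genes 6.58-fold.

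Purine receptors, with which microglia sense nucleotides released by other cells, included fallen members. Of 11 tested purinergic and adenosine receptors 6 fell and 1 rose, with a median log2 fold change of -0.61. P2ry6, the UDP receptor linked to phagocytosis, fell from 193, 179, 194 and 206 CPM to 118, 112 and 141 CPM (1.56-fold, adjusted p = 0.00219). P2rx7, the ATP-gated channel, fell from 202, 181, 179.8 and 213 CPM to 125, 113 and 144 CPM (1.52-fold, adjusted p = 0.00393). The ADP receptor P2ry13 fell 1.56-fold (adjusted p = 0.0128), which was 0.0676 without control 1. The member that rose was the adenosine receptor Adora1, at 0.531, 0.427, 3.69 and 2.02 CPM in wild type and 8.67, 3.38 and 9.9 CPM in control (adjusted p = 0.0205), where control 2 overlapped wild type and its adjusted p was 0.0712 without control 1 and 0.0765 without control 3. Of the purine receptors 2 fell without control 1 and 3 without the Y-low libraries. In bulk RNA a lower level cannot be told apart from fewer cells that express the gene.

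Other G protein-coupled receptors and their downstream enzymes included members that fell. Gpr165, an orphan receptor, was at 14.6, 10.5, 9.18 and 11.1 CPM and then 1.87, 1.56 and 1.04 CPM (7.6-fold lower, adjusted p = 0.000201). Of 37 orphan and adhesion receptors 6 fell (16.2%, against 8.04% of all tested genes) and 3 rose (8.11%, against 10.1%). Adgrg1, an adhesion receptor of the yolk sac-derived microglial programme, fell 2.01-fold (adjusted p = 0.00108), and Gpr65, a proton-sensing receptor, rose from 17.8, 15.2, 37.5 and 13.2 CPM to 121, 104 and 106 CPM (5.29-fold, adjusted p = 9.76e-05). Of 38 G protein subunits and RGS proteins 5 rose and 5 fell, 13.2% each and not far from the shares of all tested genes. Of the G protein genes 2 rose without the Y-low libraries and 3 with the 5 CPM filter, in the 7 libraries alone or with the Y-linked term, and 10 fell with GC and length offsets. Gna15, the Gq-type alpha subunit of blood cells, fell from 229.5, 179, 190.3 and 262 CPM to 82.9, 66.9 and 99.3 CPM (2.59-fold, adjusted p = 5.27e-05). Gnas, which encodes the stimulatory alpha subunit that activates adenylyl cyclase, rose from 151, 143, 126 and 154 CPM to 734, 636 and 633 CPM (4.66-fold, log2 fold change 2.22 ± 0.12 (SE), adjusted p = 2.01e-08). Phosphodiesterases, which break down cyclic nucleotides, and adenylyl cyclases, which make cyclic AMP, had 7 of 25 members fallen and 2 risen, with a median of -0.59. Pde4b fell from 25.2, 35.4, 31.9 and 33.4 CPM to 10.9, 11.1 and 14.4 CPM (2.59-fold, adjusted p = 0.000152) and Pde2a 2.56-fold (adjusted p = 0.00415). Pde8b rose 1.5-fold (adjusted p = 0.00367). Of the phosphodiesterases and cyclases 2 fell without the Y-low libraries, control 1 or control 3, 3 without wild type 1 and 4 without wild type 4 or control 2, with DESeq2 size factors, by limma-voom, in the 7 libraries alone, with the Y-linked term or with GC and length offsets.

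**Figure D4:**
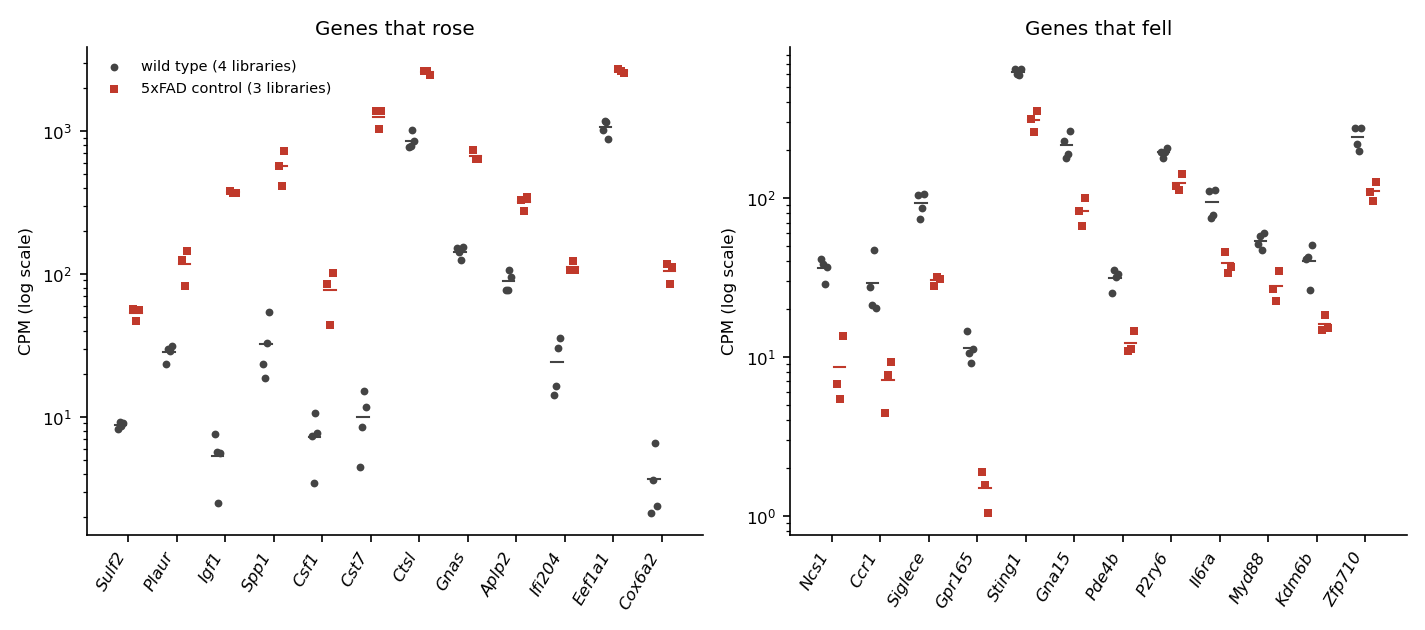
CPM (log scale) of 12 risen genes (left) and 12 fallen genes (right) in each wild-type library (circles) and each 5xFAD control library (squares), with horizontal bars at the group means. In each of the 24 genes the groups do not overlap. The same holds for 93.6% of all risen and 91.0% of all fallen genes, and for 26.7% of all tested genes.

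Proteins that relay signals from immune receptors to kinases were among the fallen genes. Of 29 growth factor receptor adaptors and Src-family kinases 9 fell and 3 rose. Dok3, an adaptor that limits immune receptor signalling, was at 37, 14.5, 19.3 and 25.7 CPM and then 6.85, 6.8 and 4.76 CPM (3.93-fold lower, adjusted p = 0.000356). Syk, the kinase downstream of ITAM receptors such as TREM2 with Tyrobp, fell from 127, 94.6, 76 and 133 CPM to 59.6, 57 and 64 CPM (1.79-fold, adjusted p = 0.0055), while the ITAM adaptor Tyrobp rose 2.49-fold (adjusted p = 0.000223). Fyn, a Src-family kinase, rose 2.33-fold from low levels (adjusted p = 0.00222). Of the adaptors and Src-family kinases 0 rose without the Y-low libraries and 1 without wild type 4, control 1 or control 3 or with the Y-linked term, and 3 fell without control 1, 4 without the Y-low libraries and 5 with the Y-linked term.

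Ncs1 was at 41.1, 38.1, 28.6 and 36.8 CPM in wild type and 6.75, 5.39 and 13.5 CPM in control (4.22-fold lower, log2 fold change -2.08 ± 0.27 (SE), adjusted p = 8.95e-05). The summed neuron markers were also lower in control, and their part in the fall of Ncs1 was not tested. Next in order of fold came Bcl9l, a Wnt pathway co-activator, from 20.7, 14.9, 9.38 and 15.3 CPM to 3.35, 3.02 and 4.48 CPM (4.16-fold, adjusted p = 0.000217). Rab3il1, an exchange factor of Rab GTPases, fell from 413, 289, 311 and 446 CPM to 116, 77.5 and 149.8 CPM (3.19-fold, adjusted p = 8.69e-05) and was the most highly expressed of the 10 deepest falls at 10 CPM or more. The largest loss in level after Lgmn and P2ry12 was that of Selplg, the P-selectin ligand PSGL-1, at 4032, 3607, 3633 and 4572 CPM and then 2215, 1260 and 2509 CPM (1.99-fold, adjusted p = 0.00367). Control 2 was the lowest control library in 55.7% of fallen genes, in 40.2% of risen genes and in 40.2% of all tested genes.

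Chromatin and DNA-binding families had few risen members. Zinc finger proteins named Zfp, Zbtb, Zkscan or Zscan had 36 of 417 members fallen and 5 risen, and 290 of 417 had a log2 fold change below 0, against 6788 of all 12505 tested genes. The share of fallen members was close to that of all tested genes, and the share of risen members was below it. Zfp710 fell from 276, 219, 196 and 275 CPM to 109, 95.1 and 127 CPM (2.19-fold, adjusted p = 0.000197) and Zfp69 2.26-fold (adjusted p = 0.000139). Among lysine methyltransferases, demethylases and PRDM proteins 7 of 51 fell (13.7%, against 8.04% of all tested genes) and 0 rose (against 10.1%). Kdm6b, which removes the repressive mark H3K27me3, was at 41.1, 42.4, 26.4 and 50.6 CPM and then 14.7, 18.3 and 15.1 CPM (2.5-fold lower, adjusted p = 0.000552). Chromatin remodellers and bromodomain proteins had 7 of 50 fallen and 1 risen, the ATPase Smarca5 (1.84-fold, adjusted p = 0.00123). Of the zinc finger proteins 2 rose without control 2, 3 without wild type 4, 8 by DESeq2, 9 without wild type 3 and 10 without the Y-low libraries, and 7 fell without the Y-low libraries, 10 without control 1, 17 without control 3 or with the Y-linked term, 18 without control 2, 21 in the 7 libraries alone, 23 without wild type 4 and 55 with GC and length offsets. Of the lysine methylation genes 0 fell without the Y-low libraries, 3 without wild type 1 or control 2, 4 without wild type 4 or control 1, 11 by DESeq2 and 16 without wild type 3. Of the remodellers 3 rose without the Y-low libraries, and 0 fell without control 1, 1 with the Y-linked term, 2 without the Y-low libraries, 3 without wild type 1, wild type 4 or control 3 and 4 without control 2.

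Transcription factors that define the cell and its daily rhythm included members that fell. Of 26 transcription factors of microglial identity 5 fell (19.2%, against 8.04% of all tested genes) and 1 rose (3.85%, against 10.1%). Sall1, a factor that separates microglia from other macrophages, fell from 442, 335, 358 and 434 CPM to 227, 292 and 245 CPM (1.54-fold, adjusted p = 0.00772, and 0.0558 without control 1). Without the Y-low libraries its log2 fold change was -0.48, against -0.62 in the full data. Of the identity factors 1 fell without the Y-low libraries, 2 without wild type 4, control 1 or control 3 or in the 7 libraries alone and 3 without wild type 1 or with the Y-linked term. The member that rose was Bhlhe40, a repressor of clock and immune genes, at 0.193, 0.712, 0.0486 and 0.719 CPM and then 39.7, 20.5 and 46.7 CPM (83-fold, adjusted p = 3.96e-07). Of 21 tested clock genes 4 fell and 2 rose. The share of risen clock genes (9.52%) was near the 10.1% of all tested genes, and that of fallen ones was above 8.04%. The risen clock genes were Nfil3 and Bhlhe40, and Bhlhe40 was already counted among the identity factors. Of the clock genes 1 fell without the Y-low libraries. The output factors Hlf (3.65-fold, adjusted p = 0.00348) and Tef (1.86-fold, adjusted p = 0.00403), which activate D-box genes, fell. Nfil3, which represses them, rose 2.1-fold (adjusted p = 0.0143). Its edgeR adjusted p was 0.111 without control 1, 0.0681 with a term for the replicate number and 0.0672 with the Y-linked term. All 3 changes were smaller without the Y-low libraries, where control 2 alone stands for its group. The log2 fold changes there were -1.37 for Hlf, -0.76 for Tef and 0.72 for Nfil3. In the full data they were -1.87, -0.89 and 1.07. The labels give no sampling times for the mice.

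Of 224 tested solute carriers 25 fell (11.2%) and 18 rose (8.04%), near the 8.04% and 10.1% of all tested genes. Slc2a5, the fructose transporter characteristic of microglia, fell from 748, 614, 483 and 745 CPM to 334, 266 and 364 CPM (2.02-fold, adjusted p = 0.000778). Slc40a1, the iron exporter ferroportin, fell from 186, 233, 278 and 204 CPM to 88.9, 128 and 110.5 CPM (2.06-fold, adjusted p = 0.000496). Slc44a1, a choline transporter, rose from 38.2, 35.6, 25.3 and 31.1 CPM to 106, 112 and 105 CPM (3.31-fold, adjusted p = 1.55e-06). Slc16a1, a lactate and ketone carrier, rose 2-fold (adjusted p = 0.000543). Of the solute carriers 4 rose without the Y-low libraries, and 12 fell without control 2, 14 without control 1, 15 without the Y-low libraries and 16 with the Y-linked term.

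The mouse homologue of the APP transgene was read as a check of the genotype only in part, because reads of human and mouse sequence were not separated in the table and the transgene promoter is neuronal. App was at 117, 104, 134 and 115 CPM in wild type and 167, 153 and 166 CPM in control (1.38-fold, adjusted p = 0.0139), and the groups did not overlap. Its edgeR adjusted p was 0.0622 without control 1 and 0.0503 with a term for the replicate number. Without the Y-low libraries, where control 2 alone stands for its group, its log2 fold change was 0.34, against 0.47 in the full data. Thy1, whose promoter drives the transgenes, had at most 20 counts in any library and was not tested. On the list of APP, secretase and related genes 4 of 18 tested rose (22.2%) and 1 fell (5.56%), against 10.1% and 8.04% of all tested genes. The larger rise was that of Aplp2, a paralogue of App, from 77.6, 76.6, 106 and 95.4 CPM to 332, 274 and 345 CPM (3.56-fold, log2 fold change 1.83 ± 0.15 (SE), adjusted p = 7.94e-07).

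Gene structure differed between the called sets. The longest transcript of risen genes had a median of 2961 nt and that of fallen genes 3522 nt, against 3412 nt over all genes with a value. Genes were also cut into 5 equal bins by length. In the shortest bin, up to 1994 nt, 15.9% rose and 6.7% fell, and in the longest bin 8.06% rose and 8.67% fell. Median GC content was 47.9% in risen, 52.9% in fallen and 49.1% in uncalled genes. Across 12226 genes, which are not independent replicates, the Spearman rank correlation of the log2 fold change with GC content was -0.263, and it was -0.268 without ribosomal protein genes. With GC and length offsets in the fit 1102 genes rose and 1247 fell. Under these offsets the respiratory subunits had 18 risen members and a median of 0.28, the medians of mitochondrial ribosomal proteins and proteasome subunits turned to -0.05 and -0.07, and the call of Actb was lost (adjusted p = 0.0567). Of the risen genes 750 (59.5%) and of the fallen genes 664 (66.1%) belong to none of the 68 families and 28 lists.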

How the data were processed

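The authors deposited one table of 19782 genes with 3 values per library. Per the file headers, the deposited expected counts are estimated reads per gene, not normalised, and 20.06% of those above 0 have a fractional part larger than 0.001. The deposited TPM are scaled for gene length and depth by the authors, and the deposited FPKM were not used. HISAT, Bowtie2 and the build GRCm38.p6 are listed in the submitters' processing notes. For the quantifier and for versions the entry is not given in the sources used here. Of the genes 19725 matched RefSeq by Entrez identifier.

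Expected counts were rounded to whole numbers. The test was that of edgeR 4.0.16 under R 4.3.3 (filterByExpr, TMM, robust quasi-likelihood fit), in 1 model of the 3 groups over 10 libraries, control against wild type, with Benjamini-Hochberg adjustment at 0.05 and a prior count of 0.125. The biological coefficient of variation was 27.3%. Lower bounds used 3 counts per pooled group. The fit was tested on simulated data. Alternatives were DESeq2 1.42.0, limma 3.58.1 (voom), other normalisations, filters and thresholds, the 7 libraries alone, a replicate block, Y-linked status (4 genes, threshold 50 CPM of unscaled totals), GC content and length of the longest GENCODE transcript, and each library left out.

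The members, lists and families were chosen with earlier results of these data known, and some family patterns were corrected after their members were seen. Genes named are the 10 largest changes in each direction among non-overlapping called genes of at least 10 CPM, the 10 largest gains and losses in CPM, the 5 lowest p in each direction in each level tier, up to 4 called members of each family in each direction, the 10 highest genes of each group, and App and Thy1. Some genes and families are not reported here. The text leaves some out. Fam20c, Plaur, Csf1, Irf7, Oas1g, Sting1, Hif1a, Pgk1, Tpi1, Egln3, Cybb, Ggta1, Mpi, Gal3st4, Gas2l3 and Hs3st1 were named after their values were seen, as were the genes without a wild-type count and the interferon promoters.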

Additional observations from a re-analysis of the deposited data

Results flagged for a closer look

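For each gene named with its values and each marker sum, the 4 wild-type libraries were searched for one library far from the other 3. The gap to the nearest library had to exceed Dixon's 95% critical value as a share of the group's range, which chance gives in about 1 of 20 groups. Of 120 values looked at 6 were marked. The summed neuron markers were 77.8 CPM in wild type 3, against 12.9 to 15.1 CPM in the remaining 3, and the summed erythrocyte markers 283.4 CPM, against 0.0449 to 20.7 CPM. Tnfsf8 was 7.58 CPM in wild type 3, above the other wild-type libraries and below every control library. Ifi213 was lowest there, at 4.42 CPM. Cd33 was highest in wild type 2, at 222.7 CPM. Atp6v0d2 was at 0.0482 CPM in wild type 1, which is a single count, and at 0 in the others.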

How the results depend on the processing

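The 1260 risen and 1005 fallen genes became 690 and 347 at an adjusted p of 0.01, and 510 and 265 with at least a 2-fold change required. With 1 library left out at a time 834 to 1514 genes rose and 481 to 1396 fell, lowest without control 1 and highest without wild type 3. The other losses over 1.5 times were those of fallen genes without wild type 4 (669) and without control 2 (560). When wild type 2, control 1 and control 3, which nearly lack Y-linked transcripts, were dropped, control 2 alone stood for its group, assumed to vary like the other groups, and 693 genes rose and 509 fell. With the Y-linked term 633 fell. The labels do not say whether the replicate numbers pair the samples, and the main fit did not pair them. Same-numbered libraries had deviations from their group means correlated at -0.009, -0.068 and -0.105. These pairs are too few to decide it, and differently numbered pairs were not compared. With a replicate block 897 genes rose and 567 fell. Other normalisations, tests, filters and the GC and length offsets gave 1102 to 1512 risen and 899 to 1247 fallen genes, within 1.5 times, and the 7 libraries alone 952 and 694. Of 108 called genes named in the text, with Tlr1 and Tlr2 left out, 0 turned direction under these alternatives and 79 passed under every one. Of these, 25 were lost when those 3 libraries were dropped, 10 when 1 library was left out and 6 with the Y-linked term, namely Actb, Adora1, Csf1r, Ctsd, Nfil3 and Stat3. The 7 libraries alone lost Actb, Adora1, Csf1r and Lgmn. Left-out libraries also ended the calls of Actb, Lgmn and P2ry12, whose ranks are given above. Irf7 and Cst3, uncalled in the full data, passed under at least 1 alternative. In the bottom tier of genes, under 9.29 CPM, counting error is largest relative to the level.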

Other observations

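Some of the lowest p-values belong to genes not yet described, most of them named here after their values were seen. They are single genes, and no share of their functions over all tested genes was counted. Hif1a, the oxygen-regulated subunit of the hypoxia-inducible factor, was at 78.5, 83.3, 98.9 and 85.2 CPM in wild type and 407, 347 and 411 CPM in control (4.49-fold, log2 fold change 2.17 ± 0.14 (SE), edgeR adjusted p = 8.72e-08). Egln3, a prolyl hydroxylase that marks HIF subunits for degradation, went from 0.0482, 0.57, 0.0486 and 0.719 CPM to 16.4, 8.92 and 15.7 CPM (38.3-fold, adjusted p = 1.1e-05). The glycolytic enzymes Pgk1 (3.55-fold, adjusted p = 2.33e-06) and Tpi1 (2.93-fold, adjusted p = 7.14e-06) rose. Psat1, an enzyme of serine synthesis, rose from 18.4, 19.5, 30.1 and 16 CPM to 158, 105 and 166 CPM (6.8-fold, adjusted p = 6.26e-07). Cybb, the catalytic subunit of the phagocyte NADPH oxidase, rose 5.53-fold (adjusted p = 6.13e-07). Every control library lay above every wild-type library in each of these genes.

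Gas2l3, a linker of actin and microtubules, was at 14.3, 23.1, 19.2 and 19 CPM and then 190.3, 267 and 176 CPM (11.2-fold, adjusted p = 1.67e-08), with control 2 the highest. Capg, which caps actin filaments, rose 6.49-fold (adjusted p = 5.49e-08), and Myo5a, a vesicle motor, 6.67-fold (adjusted p = 5.62e-08). Ggta1, which adds alpha-galactose to cell surface glycans, fell from 149, 139.5, 122 and 151 CPM to 54.5, 71.4 and 57.5 CPM (2.3-fold, adjusted p = 4.04e-05). Mpi, the mannose phosphate isomerase, fell 1.91-fold (adjusted p = 6.21e-05) and Gal3st4, a galactose sulfotransferase, 1.67-fold (adjusted p = 0.00121). Hfe, a regulator of iron uptake, fell from 245, 236, 263 and 234 CPM to 144, 137 and 159.7 CPM (1.67-fold, adjusted p = 0.00055).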
